A study of Mus musculus with 8 samples.

Results

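The 10 genes described here encode the peroxiredoxins *Prdx1* to *Prdx6*, the cytosolic thioredoxin *Txn1*, its reductase *Txnrd1* and the glutathione peroxidases *Gpx1* and *Gpx4*, the core enzymes with which a cell removes hydrogen peroxide and lipid peroxides. They were taken by gene symbol, with earlier results of these data known, and all 10 were found among the 13704 genes with reads in the RNA-seq count tables. All 10 also belonged to the 10881 genes tested here, those with 10 or more reads in total. RNA-seq was done on Th17 cells, the interleukin 17-producing helper T cells, which were grown from naive CD4+ T cells in vitro over 3 days in TGF-β (0.5 ng/ml) plus IL-6 (20 ng/ml), then stimulated again through CD3. Cells came from wild type (WT) mice or from TRIM28fl/flxCD4cre (KO) mice, in which Cre driven by the *Cd4* promoter deletes *Trim28*, the gene of a chromatin cofactor, in T cells. Both groups had the strain C57BL/6 in their labels. The age and number of the mice were not given for these libraries. There was 1 library per genotype, so no difference below has a replicate check, and every p below speaks of these 2 libraries and not of the genotypes. In bulk RNA a difference in the cells' makeup and one in RNA per cell cannot be told apart.

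Peroxiredoxins reduce peroxides with a reactive cysteine. In the 2-Cys members, *Prdx1* to *Prdx5*, the oxidized cysteine forms a disulfide, in most of them reduced by thioredoxin, and thioredoxin is in turn reduced by thioredoxin reductase with electrons from NADPH. *Prdx6*, the 1-Cys member, and the glutathione peroxidases draw on glutathione instead. T cells that divide after activation generate peroxides in their mitochondria, and thioredoxin also supplies electrons for the synthesis of deoxyribonucleotides.

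The WT library held 6.65 and the KO library 6.19 times 1000000 uniquely assigned reads. *Trim28* itself fell from 4485 reads in WT cells to 180 in KO cells. All 6 T cell markers checked had reads in both libraries. The 6 Th17 markers summed to 2146 CPM (reads per 1000000 assigned reads) in WT cells and 560 in KO cells. The 4 B cell markers summed to 11.3 and 7.11 CPM and the 6 myeloid markers to 4.51 and 2.75 CPM. None of 8 erythroid genes was listed in either library, which bears on *Prdx2*, a gene abundant in red cells. A count of 0 allows a level of up to 0.451 CPM for WT and 0.485 for KO cells, taken as 3 reads.

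Among the 10 genes, *Gpx1*, *Gpx4* and *Txnrd1* encode selenoproteins. In their messages an in-frame TGA codon, otherwise a stop signal, is read as selenocysteine, the catalytic residue. The coding stretches around this codon are shown because they set these 3 enzymes apart from the peroxiredoxins, which use cysteine. They are given 5′ to 3′ on the coding strand of GRCm38 (the assembly behind mm10), with the TGA codon in capitals. All 3 genes lie on the plus strand, and the third stretch ends with the stop codon of *Txnrd1*.
*Gpx1*, chr9:108339433-108339471: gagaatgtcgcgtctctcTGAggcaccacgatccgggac
*Gpx4*, chr10:80054719-80054757: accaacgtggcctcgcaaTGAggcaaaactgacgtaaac
*Txnrd1*, chr10:82896019-82896045: atcctccagtctggctgcTGAggttaa

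*Prdx5* had the largest difference of the 10 genes. This peroxiredoxin, found in mitochondria, peroxisomes and the cytosol, was counted 532 times in WT cells (80.0 CPM) and 1094 times in KO cells (177 CPM). The log2 of KO over WT, after adding 0.5 to both counts and scaling by depth, was 1.14. The exact (Clopper-Pearson) 95% interval ran from 0.99 to 1.30, or from 1.99-fold to 2.46-fold. Such intervals, here and below, account for counting alone and not for variation between cultures, mice or libraries. PCR copies of a molecule also cannot be recognised in these reads. *Prdx5* was the 1 member called higher by an adjusted p below 0.05 with a difference of 2-fold or more, the adjusted p being 2.10e-52 in the exact binomial test (two-sided, Benjamini-Hochberg over all genes tested). Of all genes tested, 2.57% were called higher by this rule and 5.53% lower, and no member was called lower. Had replicate cultures varied with a coefficient of variation of 0.2, an assumed value put into edgeR, the adjusted p of *Prdx5* would have been 0.191, and no member would have been called.

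*Txn1* and *Gpx4* differed by less than 2-fold, but by more than 1.5-fold. *Txn1*, the cytosolic thioredoxin, went from 2570 reads in WT cells (386 CPM) to 4125 in KO cells (667 CPM). Its log2 fold change was 0.79 (95% interval from 0.72 to 0.86, adjusted p = 2.23e-105 by the exact binomial test), or 1.73-fold. *Gpx4*, which reduces lipid peroxides within membranes and protects cells from ferroptosis, had 292 reads (43.9 CPM) and 433 reads (70.0 CPM). Its log2 fold change was 0.67 (95% interval from 0.46 to 0.89, adjusted p = 4.82e-09 by the same exact test). With *Prdx5*, 3 of the 10 genes were thus higher in the KO library by 1.5-fold or more with an adjusted p below 0.05, against 7.02% of all genes tested. None was lower by this rule, against 11.5% of all genes tested.

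The other 7 genes stayed within 1.5-fold. *Gpx1*, the most abundant glutathione peroxidase of the cytosol, had 2958 reads in WT cells (445 CPM) and 3214 in KO cells (520 CPM), which is 0.22 on the log2 scale (0.15 to 0.30). *Prdx2*, a cytosolic peroxiredoxin, had 1723 and 1736 reads (259 and 281 CPM), with a log2 ratio of 0.12 (0.02 to 0.21). *Prdx6* had 1584 and 1632 reads (238 and 264 CPM), with a log2 ratio of 0.15 (0.05 to 0.25). These 3 genes passed an adjusted p of 0.05 by the exact binomial test at 8.44e-09 for *Gpx1*, 0.0439 for *Prdx2* and 0.0107 for *Prdx6*. With no limit on the fold, 6 of the 10 genes were therefore higher and 0 lower at an adjusted p under 0.05, against 21.4% of all genes tested higher and 22.4% lower. Passing this limit depends on depth. Among the 4677 genes with at least 500 reads, which include all of the 10 but *Txnrd1*, 34.1% were higher and 29.7% lower.

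For the remaining 4 genes the counting interval included 0. *Prdx1*, the main peroxiredoxin of the cytosol and nucleus, had 807 and 804 reads (121 and 130 CPM), or a log2 ratio of 0.10 (-0.04 to 0.24). *Prdx4*, the peroxiredoxin of the endoplasmic reticulum, had 350 and 376 reads (52.6 and 60.8 CPM), or a log2 ratio of 0.21 (-0.01 to 0.42). The upper bounds of these 2 intervals exclude a rise of 1.5-fold in these libraries. *Prdx3*, which is confined to mitochondria, had 397 and 353 reads (59.7 and 57.1 CPM), or a log2 ratio of -0.06 (-0.28 to 0.15). *Txnrd1*, the cytosolic thioredoxin reductase, had only 38 and 31 reads (5.71 and 5.01 CPM), or a log2 ratio of -0.18 (-0.92 to 0.53), an interval that includes both no difference and a 1.5-fold lower level, which could not be told apart at this depth.

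**Figure D1:**
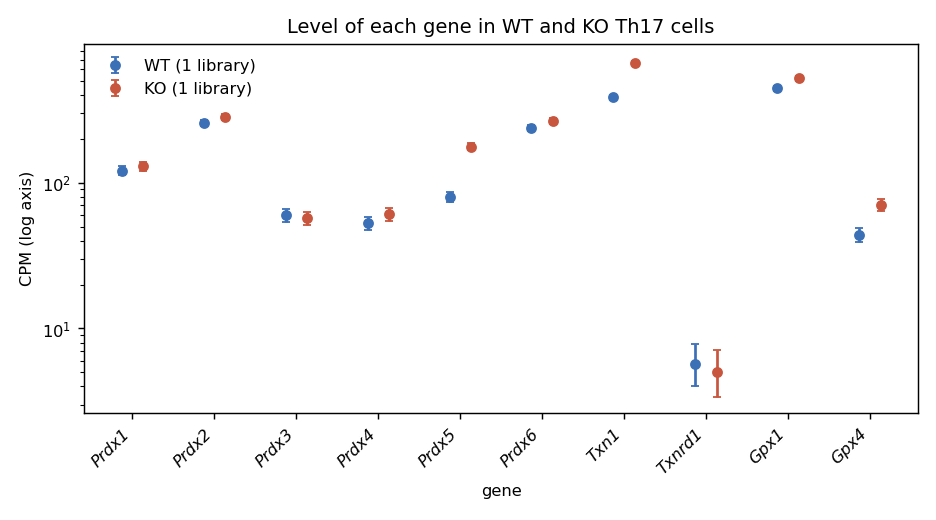
Level of each of the 10 genes in the WT and KO Th17 libraries, in CPM on a log axis, with 1 library per genotype. Bars are exact 95% Poisson intervals of the read count, and the points of *Prdx5*, *Txn1* and *Gpx4* stand clearly apart between the libraries, with *Txnrd1* far below the other genes.

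Among the peroxiredoxins, *Prdx5* departed from the rest. The other 5 peroxiredoxins together had 4861 reads in WT cells against 4901 in KO cells, so that their sum had a log2 ratio of 0.12 (0.06 to 0.17). Within a library, reads of *Prdx5* were 0.659 times those of *Prdx1* in WT cells and 1.36 times in KO cells, and 1.34 and 3.10 times those of *Prdx3*, the other mitochondrial member. The reads of *Txn1* were 1.49 times those of *Prdx2* in WT cells and 2.38 times in KO cells. *Gpx4* had 0.0987 times the reads of *Gpx1* in WT cells and 0.135 times in KO cells. Together the 10 genes took 0.169% of the reads of WT cells and 0.223% of those of KO cells, with *Txn1* the most read of them in the KO library. Without *Txn1* and *Prdx5*, the sum of the other 8 genes had a log2 ratio of 0.18 (0.13 to 0.22).

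Levels of different genes were compared per length, as RPKM (CPM per kilobase of the longest GENCODE transcript). In the WT library *Gpx1* was highest at 415 RPKM, followed by *Txn1* at 368, *Prdx2* at 161 and *Prdx6* at 93.1 RPKM, and none of these neighbours in the order overlapped in its counting interval. *Prdx1* (52.9 RPKM), *Prdx4* (51.3), *Gpx4* (44.1), *Prdx5* (43.8) and *Prdx3* (40.4) followed, and each overlapped with its neighbour. *Txnrd1* came last at 1.58 RPKM. In the KO library *Txn1* (635 RPKM) stood above *Gpx1* (485 RPKM), and *Prdx5* (96.9 RPKM) lay next to *Prdx6* (103 RPKM) with overlapping intervals. *Gpx4* (70.4 RPKM), *Prdx4* (59.3) and *Prdx1* (56.7) came next, each overlapping with its neighbour, ahead of *Prdx3* (38.6) and *Txnrd1* (1.38 RPKM). *Prdx5* thus stood at place 8 of the 10 genes in the WT library and at place 5 in the KO library. These places depend on the transcript taken. With the longest RefSeq transcript, *Prdx5* was at 62.9 RPKM and place 6 in WT cells and at 139 RPKM and place 4, above *Prdx6* at 106 RPKM, in KO cells, and *Prdx1* was at 85.6 and 91.7 RPKM. Across the 2 libraries, the 3 genes nearest to *Prdx5* by Euclidean distance in log2 CPM were *Aurka* (499 and 1050 reads), *Hist1h2ao* (479 and 1220 reads) and *Mbd1* (599 and 1216 reads), at distances of 0.11, 0.22 and 0.23.

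Short transcripts as a class were higher in the KO library. Across 10791 tested genes with an annotated transcript, the length of the longest transcript and the log2 fold change had a Spearman's rho of -0.37, given as a description across genes of the same 2 libraries. The median length was 1545 bases for the 10 genes and 3317 bases for all genes tested. The tested genes were put in 10 equal bins by length. The bin with the shortest transcripts, which holds *Prdx4*, *Txn1*, *Gpx1* and *Gpx4*, had a median log2 fold change of 0.29, and the next bin, with *Prdx2*, *Prdx3* and *Prdx5*, one of 0.21. The median of the 10 genes, 0.18, lay between that of the latter and that of the bin after it (0.14, with *Prdx1*), and the median of all genes tested was -0.02.

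Taking a loess curve of fold change on transcript length off each gene brought the median of the 10 genes to -0.03. *Prdx5* moved to 0.97 (adjusted p = 2.61e-37, exact binomial test with the curve in the expected share), just under 2-fold, so that its call ended and no member was called either way, against 2.47% of all genes higher and 4.32% lower. *Txn1* moved to 0.52 (adjusted p = 6.74e-46) and *Gpx4* to 0.40 (adjusted p = 0.00135), both under 1.5-fold. On this scale 1 of the 10 genes, *Prdx5*, was higher by at least 1.5-fold at an adjusted p under 0.05, against 6.51% of all genes, and none was lower by that much, against 8.22%. With no fold limit 3 were higher, against 20.8%. *Gpx1* moved to -0.04, *Prdx1* to -0.03, *Prdx2* to -0.08, *Prdx4* to -0.06 and *Prdx6* to 0.05, all with an adjusted p over 0.05. *Prdx3* moved to -0.28 with an adjusted p of 0.0250 by the same exact test, the 1 gene lower on this scale, against 17.5% of all genes. *Txnrd1* was at -0.14. The part of transcript length, as a property of the libraries or of the cells, in the 10 genes' differences was not tested.

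**Figure D2:**
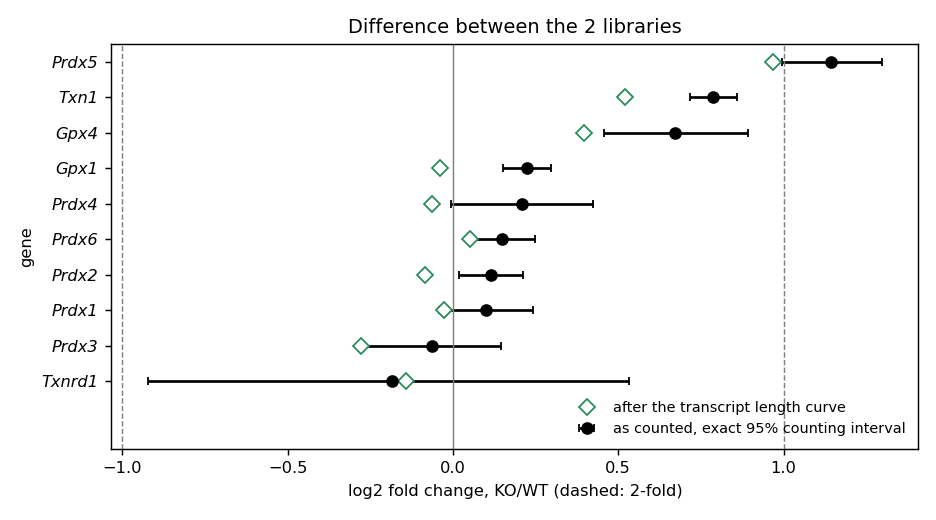
Log2 fold change (KO/WT) of each gene as counted (filled points, with exact 95% counting intervals) and after the transcript length curve was taken off (open diamonds); dashed lines mark 2-fold. *Prdx5*, *Txn1* and *Gpx4* stay above 0 on both scales, and the other genes lie between -0.28 and 0.05 on the second.

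**Figure D3:**
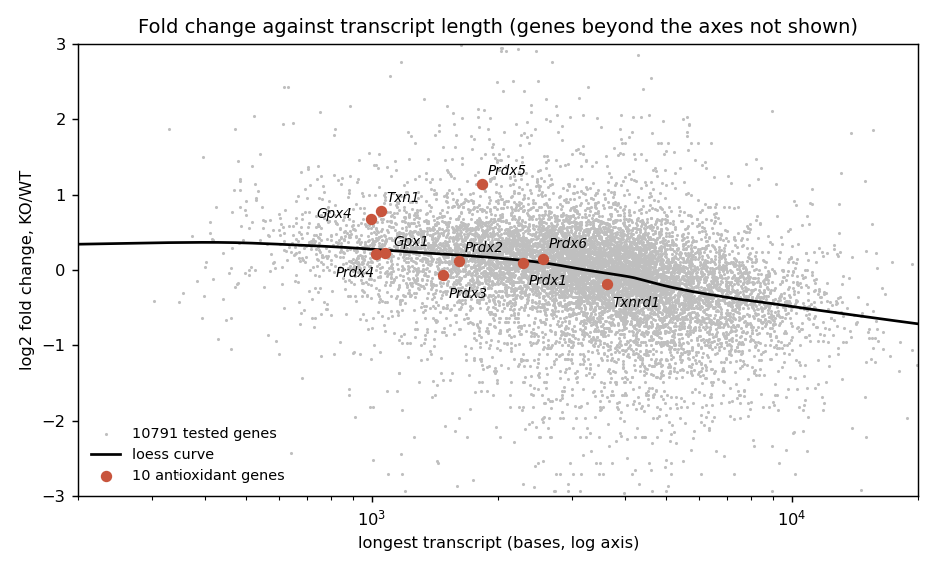
Log2 fold change (KO/WT) against the length of the longest transcript on a log axis, with each grey point 1 tested gene, the black line the loess curve and the red points the 10 genes. The curve falls with length. Of the 10 genes, *Prdx5*, *Txn1* and *Gpx4* lie furthest above it and *Prdx3* furthest below it.

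The deposited counts hold uniquely assigned reads, and several of the 10 genes have near-copies elsewhere in the genome, from which a short read may not be told apart. The share of 31-base stretches of the longest RefSeq transcript that occur exactly at another place of GRCm38 was therefore computed. It was 72.2% for *Prdx1* (1001 of 1387 stretches), of which 837 occur at the pseudogene *Gm21399* on chromosome 8 and 352 at *Gm7204* on chromosome 16. For *Gpx4* it was 65.1% (645 of 991), with 641 stretches at *Gpx4-ps2* on chromosome 10 and 165 at *Gpx4-ps1* on chromosome 17. *Prdx2* shared 20.4%, mainly with *Prdx2-ps1* on chromosome 1, and *Txn1* 11.8%, with *Txn-ps1* on chromosome 1. *Prdx6* shared 5.49%, with its paralog *Prdx6b* (25 and 24 reads) on chromosome 2 and with *Prdx6-ps2* on chromosome 4, and *Prdx4* shared 1.99%. *Prdx3*, *Prdx5*, *Txnrd1* and *Gpx1* shared 0%.

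Of the 9 annotated pseudogenes at places with 20 or more such stretches, 0 were listed in either table. With uniquely assigned reads, those that match a gene and its copy equally well may be missing from the counts, so the levels of *Prdx1* and *Gpx4* may be understated relative to the other genes, and their differences rest on the reads that were kept. *Fth1*, a ferritin heavy chain gene of the lists described further on and named here after its values were seen, had 0 and 1 reads. Whether copies took the reads of any of these genes was not tested. The low level of *Txnrd1* has no such copy beside it. That gene has 4 RefSeq transcripts, and in the WT library the median level of tested genes with 4 or more was 5.86 RPKM, against 13.2 RPKM for those with 1. *Prdx6* and *Gpx4* also have 4 RefSeq transcripts, and stood at 93.1 and 44.1 RPKM in the WT library. Whether reads shared by several transcripts of a gene were kept is not stated either, and its part in the count of *Txnrd1* was not tested.

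**Figure D4:**
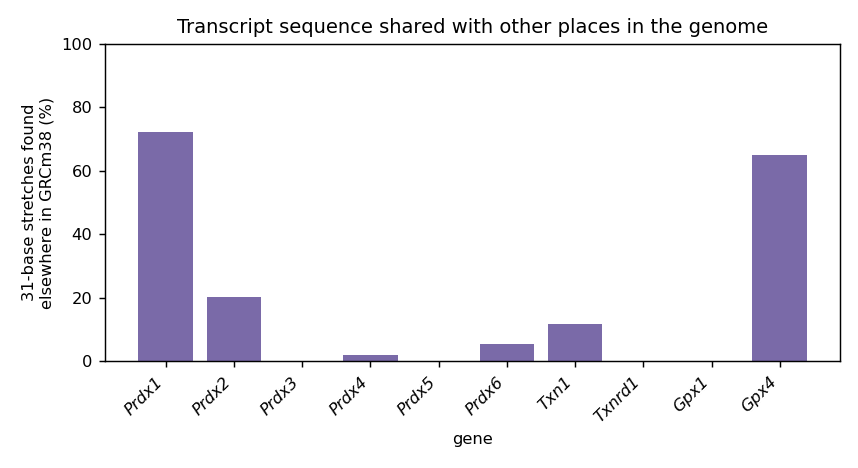
Percent of the 31-base stretches of each gene's longest RefSeq transcript that occur exactly elsewhere on the GRCm38 chromosomes, on an axis from 0 to 100. *Prdx1* and *Gpx4* share most of their sequence with pseudogenes, and *Prdx3*, *Prdx5*, *Txnrd1* and *Gpx1* share none.

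The genes lie apart in the genome, with their positions here from the RefSeq annotation of GRCm38. *Prdx5* (chromosome 19 from 6906697 to 6910106, minus strand) and *Prdx3* (chromosome 19 from 60864066 to 60874538, minus strand) are on the same chromosome, as are *Prdx1* (chromosome 4 from 116685599 to 116700000, plus strand) and *Txn1* (chromosome 4 from 57943373 to 57956411, minus strand). *Gpx4* (80047166 to 80056439) and *Txnrd1* (82833951 to 82897724) are both on the plus strand of chromosome 10. *Prdx5* overlaps the neighbouring gene *Trmt112*, which encodes a cofactor of methyltransferases, on the opposite strand. Of the 1271 exonic bases of *Prdx5*, 409 (32.2%) are also exonic in *Trmt112*, and a library counted without strand could not tell their reads apart. *Trmt112* was counted 46 times in WT and 68 times in KO cells, with a log2 ratio of 0.66 (0.11 to 1.24). The strand setting is not known, so these counts may lack reads of the shared bases, and their part in the difference of *Prdx5* was not tested.

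The promoters of the 3 genes with the largest differences are shown beside those of *Prdx1* and *Txnrd1*. Both are among the textbook targets of the oxidative stress factor NRF2, a choice that does not mark the other genes as non-targets. Each is the 250 bases before a RefSeq start site, 5′ to 3′ on the gene's strand, from the RefSeq promoter table of GRCm38.p6. For *Gpx4* and *Txnrd1*, which have several start sites, 1 site with matches is shown. Capitals mark the letters of 4 motifs searched on both strands: TGACNNNGC (the core of the antioxidant response element that NRF2 binds), GGGCGG (a GC box), CCAAT and TATAAA. No overlap between different motifs was removed.
*Prdx5*, chr19:6910107-6910356, minus strand: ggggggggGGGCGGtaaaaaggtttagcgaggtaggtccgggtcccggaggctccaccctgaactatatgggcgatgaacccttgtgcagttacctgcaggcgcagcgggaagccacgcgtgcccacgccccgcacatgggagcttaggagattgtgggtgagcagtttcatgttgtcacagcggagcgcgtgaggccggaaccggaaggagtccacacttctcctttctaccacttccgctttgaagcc
*Txn1*, chr4:57956412-57956661, minus strand: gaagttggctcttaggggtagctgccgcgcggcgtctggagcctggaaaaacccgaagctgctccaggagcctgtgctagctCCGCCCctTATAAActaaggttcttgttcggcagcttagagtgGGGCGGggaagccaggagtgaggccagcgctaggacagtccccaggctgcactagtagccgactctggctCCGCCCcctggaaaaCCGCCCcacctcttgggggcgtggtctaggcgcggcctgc
*Gpx4*, chr10:80053315-80053564, plus strand: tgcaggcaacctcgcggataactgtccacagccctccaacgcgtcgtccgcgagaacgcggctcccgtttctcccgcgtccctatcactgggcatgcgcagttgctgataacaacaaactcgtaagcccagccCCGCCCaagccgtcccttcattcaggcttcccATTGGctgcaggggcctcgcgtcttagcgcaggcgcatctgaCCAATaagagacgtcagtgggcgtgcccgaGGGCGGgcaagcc
*Prdx1*, chr4:116685349-116685598, plus strand: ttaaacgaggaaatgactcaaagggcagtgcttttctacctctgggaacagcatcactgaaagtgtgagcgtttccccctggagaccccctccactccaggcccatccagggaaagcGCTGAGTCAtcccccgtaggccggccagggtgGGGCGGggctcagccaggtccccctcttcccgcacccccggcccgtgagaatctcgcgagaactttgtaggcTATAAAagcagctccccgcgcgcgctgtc
*Txnrd1*, chr10:82858956-82859205, plus strand: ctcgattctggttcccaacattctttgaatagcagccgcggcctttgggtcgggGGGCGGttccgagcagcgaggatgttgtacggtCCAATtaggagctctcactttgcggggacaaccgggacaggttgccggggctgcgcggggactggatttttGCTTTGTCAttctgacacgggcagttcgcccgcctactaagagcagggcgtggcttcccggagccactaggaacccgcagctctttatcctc

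The table holds 14 promoters of 9 of the genes, some of them overlapping windows of the same gene, and *Prdx6* was not searched. TGACNNNGC was found in 2 of the 14, upstream of *Prdx1* and *Txnrd1*, against 10.2% of the 32851 promoters in the table. The 3 genes with the largest differences do not hold these letters in the windows searched, and neither do most promoters in the table. Bases outside the windows were not searched, and whether NRF2 acts on these 3 genes was not tested. GGGCGG was found in 9 of the 14, against 32.7% of all promoters, CCAAT in 5 of the 14, against 33.9%, and TATAAA in 3 of the 14, against 12.4%. Of these motifs, the windows shown for *Prdx5*, *Txn1* and *Gpx4* share only GGGCGG. It was not particular to them, being found upstream of *Prdx1*, *Prdx3*, *Prdx4* and *Txnrd1* too. The 14 windows hold from 2 to 24 CpG dinucleotides. These matches describe letters, not sites.

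The wider redox network was described with 10 lists of 97 genes in all, of which 75 had enough reads to be tested. Of these, 3 were called higher and 2 lower by the 2-fold rule, against 2.57% and 5.53% of all genes tested. At an adjusted p under 0.05 with no fold limit, 30 were higher and 9 lower, against 21.4% and 22.4% of all genes. Among genes with at least 500 reads, which pass this limit more often, 34.1% were higher and 29.7% lower. The list genes were not matched by depth. Their median log2 fold change was 0.19, or 0.13 after the length curve.

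Of 13 other thioredoxin system genes tested, none was called by the 2-fold rule and 3 were higher and 3 lower at an adjusted p under 0.05 alone. *Txnip*, an inhibitor that binds reduced thioredoxin, was counted 119 times in WT and 61 times in KO cells, with a log2 ratio of -0.85 (adjusted p = 0.000514, exact binomial test), the lowest of the list. *Nxn*, a nucleoredoxin, was the highest with 197 and 293 reads (0.68). *Sesn3*, a sestrin, had the most reads, 2087 and 1324, with a log2 ratio of -0.55 that came to -0.10 after the length curve. The mitochondrial counterparts of *Txn1* and *Txnrd1*, named here after their values were seen, were *Txn2* with 1018 and 1008 reads (0.09, or -0.06 after the length curve) and *Txnrd2* with 160 and 184 reads (0.31), neither past an adjusted p of 0.05.

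In the glutathione list 13 of 17 genes were tested, and none was called. *Glrx*, glutaredoxin, had the most reads, 1485 and 1056, and the lowest log2 fold change, -0.39. *Gstp1*, a glutathione S-transferase, was the highest at 0.62 with 291 and 417 reads, and came to 0.32 after the length curve. The superoxide dismutase and catalase list had 4 genes tested and none called. At an adjusted p under 0.05 alone 3 were higher and 0 lower, against 21.4% and 22.4% of all genes tested. Values ran from *Sod2* at 0.18 (432 and 454 reads) to *Ccs*, the copper chaperone of *Sod1*, at 0.33 (475 and 554 reads). This order turned after the length curve, with 0.47 for *Sod2* and 0.06 for *Ccs*. *Sod1* had the most reads, 1458 and 1681. Of the methionine sulfoxide reductases, *Msrb1* (180 and 218 reads) was at 0.38 and *Msrb2* (66 and 48 reads) at -0.35, or 0.14 and -0.60 after the length curve.

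Since 3 of the 10 genes encode selenoproteins, the machinery that makes these proteins was set beside them. None of its 7 genes was called by the 2-fold rule. *Sephs2*, which makes the selenium donor, had the highest value, 0.72 (0.53 to 0.90), with 390 and 596 reads. *Sephs1* had the most reads, 725 and 819 (0.28, or 0.52 after the length curve), and *Secisbp2*, which binds the selenocysteine insertion element, was lowest at -0.14 (338 and 285 reads). Of 11 other selenoprotein genes 2 were called higher. *Selenon*, of the endoplasmic reticulum, had 95 and 185 reads (1.06) and *Selenom* 8 and 24 reads (1.63). *Selenow* had the most reads, 4557 and 5157 (0.28, or -0.04 after the length curve), and *Selenop* was lowest at -0.64 (74 and 44 reads).

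Among the genes that supply NADPH, 8 were tested and 1 was called. At an adjusted p under 0.05 alone 6 were higher, with *Nnt* among them, and 0 lower, against 21.4% and 22.4% of all genes tested. *Nnt*, which encodes the transhydrogenase that makes NADPH in mitochondria (chromosome 13 from 119335527 to 119409257), was counted 1 time in WT cells and 41 times in KO cells. Its log2 ratio was 4.89, a value that depends on the 0.5 added to the single WT read, with an exact 95% interval from 2.90 to 10.80. As background, C57BL/6J mice carry a deletion within *Nnt* that C57BL/6N mice lack, and the labels give C57BL/6 for both genotypes without a substrain. A difference in substrain and the deletion of *Trim28* cannot be told apart for *Nnt* with 1 library per genotype, and the part of *Nnt* in the differences of *Prdx3*, *Prdx5* or any other gene was not tested. *Me2* had the most reads, 1717 and 1562 (-0.03), and *Nadk* was lowest at -0.04 (62 and 56 reads).

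Of the NRF2 pathway genes 6 of 8 were tested and none was called. At an adjusted p under 0.05 alone 0 were higher and 1 lower, against 21.4% and 22.4% of all genes tested. The list holds regulators of NRF2 targets as well as targets, so its median does not measure the activity of NRF2. *Abcc1* was both the most read, with 394 and 411 reads, and the highest at 0.17 (0.52 after the length curve), and *Bach1*, a repressor of NRF2 targets, was the lowest at -0.80 (111 and 59 reads, -0.51 after the length curve, adjusted p = 0.00180, exact binomial test). In the list for lipid peroxidation and ferroptosis, *Acsl4*, which loads polyunsaturated fatty acids into lipids, was called lower with 26 and 10 reads (-1.23), and *Ftl1*, a ferritin light chain, had the most reads, 3878 and 5387, and the highest value (0.58, or 0.30 after the length curve). Among the genes of the NADPH oxidase, which makes superoxide, *Cyba* was the highest at 0.44 (1415 and 1791 reads), or 0.13 after the length curve, and *Rac2* had the most reads, 8271 and 8564 (0.15). With the length curve taken off, *Acsl4* was not called.

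**Figure D5:**
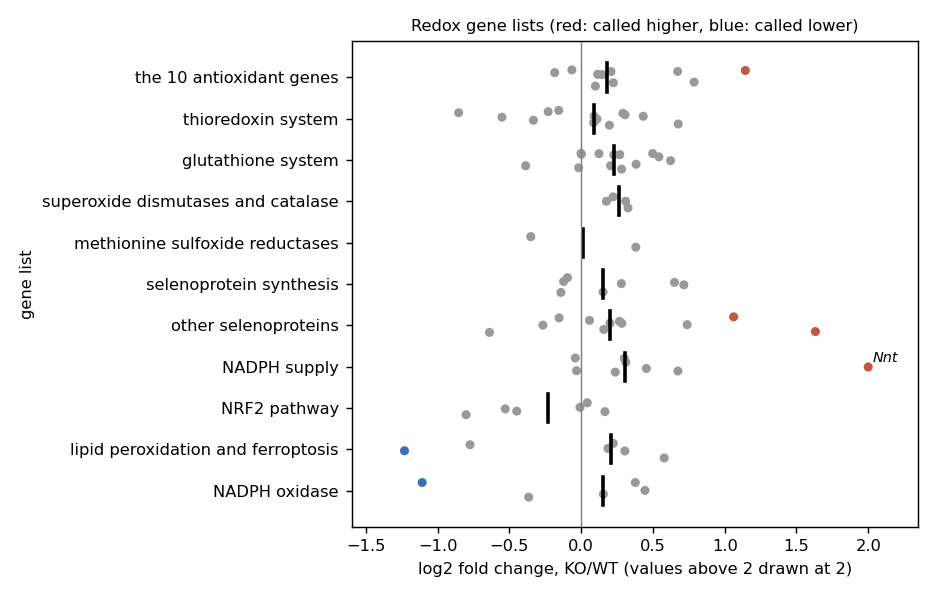
Log2 fold change (KO/WT) of each tested gene (points) in the 10 antioxidant genes and in 10 other redox gene lists, with the median of each list as a black bar; values above 2 are drawn at 2. Most list medians lie between 0 and 0.31. The median of the NRF2 pathway list, which holds regulators such as *Bach1* as well as targets, is -0.23. Called higher were 3 list genes besides *Prdx5* (red), and 2 (blue) were called lower.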

How the data were processed

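RNA-seq counts of 1 WT and 1 KO Th17 library were used. The other 6 samples of the series, from ChIP-seq, were not analysed here. The authors mapped the reads to mm10 (SOAP2 per the paper's methods; the submitters' processing notes list bcl2fastq, HTSeq and Bowtie without roles) and deposited whole read counts for each gene, uniquely assigned per the file headers and not normalized. Genes without reads are not listed and were given 0. The annotation, strand setting and handling of shared reads are not given in the sources used here. Counting uniquely assigned reads can undercount genes with near-identical copies. Counting without strand could add reads of an overlapping gene or leave out reads of the shared bases, depending on the counting rule.

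Counts were scaled to library totals, with 0.5 added for log2 fold changes. For each gene with 10 or more reads in total, the KO share of its reads was set against the KO share of the sequencing in an exact binomial test, two-sided, adjusted by Benjamini-Hochberg (SciPy 1.17.1). The quasi-likelihood test of edgeR could not be fitted to 1 library per genotype. Calls needed an adjusted p under 0.05 and at least 2-fold, the limits in the paper's methods. The length curve (statsmodels 0.14.6, span 0.3) used the longest GENCODE M21 transcript, found for 99.2% of tested genes. Of 13704 gene names, 12841 matched a RefSeq symbol and 803 an older one. Alternatives used edgeR 4.0.16 and DESeq2 1.42.0 in R 4.3.3. The calculations were tested on simulated data.

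The members and lists were chosen with earlier results of these data known. Named were the 10 members, *Trim28*, the 3 genes nearest to the member that differed most, and in each list the called genes, the most read, the highest and the lowest. A list gene that this rule names is not reported here. Other genes are named only as overlapping genes, copies or as stated.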

Additional observations from a re-analysis of the deposited data

How the results depend on the processing

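Each choice was changed alone. The causes of the changes were not tested. Of all genes, 602 were called lower and 280 higher. Assuming a between-culture variation (coefficient of variation) of 0.2 in edgeR left 131 and 65, one of 0.4 left 9 and 7, and a 1.5-fold limit gave 1248 and 764. The 1 member called higher, *Prdx5*, became 0 with the length curve (log2 fold change 0.97), with the length of the longest RefSeq NM transcript in its place (0.89, an alternative chosen after seeing the data) and at variations of 0.2 (1.14, adjusted p = 0.191) and 0.4 (1.14, adjusted p = 1.0), and 3 members were called at 1.5-fold. At a variation of 0.1 *Prdx5*, *Txn1* and *Gpx4* were higher at an adjusted p under 0.05, against 4.47% of all genes higher and 7.8% lower. At 0.2 no member passed, against 0.597% of all genes higher and 1.2% lower. The median of the members (0.18) was -0.034 with the length curve and -0.071 with the RefSeq lengths. With the length curve *Prdx1* turned to -0.028, *Prdx2* to -0.084, *Prdx4* to -0.064 and *Gpx1* to -0.039, and with the RefSeq lengths to -0.14, -0.11, -0.086 and -0.061. *Prdx3* turned to 0.031 with a GC content curve. *Prdx2* did not pass an adjusted p of 0.05 with upper-quartile scaling or when genes with at least 1 read were tested. List genes called lower (2) became 0 with 5 reads added to each count, with the length curve and at variations of 0.1, 0.2 and 0.4. They became 1 with the GC curve and with the RefSeq lengths, and 3 when genes with at least 1 read were tested. With a minimum of 1 CPM in either library they were 4, and at 1.5-fold 5. List genes called higher (3) became 2 with the GC curve, with the RefSeq lengths and at a variation of 0.1. They became 1 at a variation of 0.2, 0 at 0.4 and 9 at 1.5-fold. Of 120 values of single members under 12 alternatives, 107 kept direction and call, but part of this tally was fixed in advance. Alternatives that changed only the test or the read filter used the same fold change, so its direction could not turn. Members that were not called at first kept that label under any stricter test. No paired analysis was possible because there was 1 library per genotype, and for the same reason no replicate could be left out. Depth limits *Txnrd1* most, with 38 and 31 reads.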
